A study of Mus musculus with 4 samples.

Results

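Interferon-stimulated genes were followed through the cells of mouse adipose tissue (AT). A list of 34 gene symbols defined the members, of which 33 were found among the 32290 features of the tables and 1, Mx1, was not analysed here. The single-cell libraries came from mice with Tert, the catalytic subunit of telomerase, deleted in endothelial cells (EC) and from their controls, in order to learn how loss of the gene in EC affects AT. There were 4 groups with 1 library each: WT SC and KO SC from subcutaneous AT, WT IP and KO IP from visceral intraperitoneal AT. WT mice were Tie2e-cre, TERT+/+ and mTmG, and KO mice were Tie2e-cre, TERTfl/fl and mTmG, so that the Cre recombinase under the Tie2e promoter and the mTmG reporter were shared by all groups. All mice were males aged 7 months that had received a high-fat diet for 5 months. The labels do not state how many mice a library held, and they name both cells and nuclei as the material loaded for 10x Chromium 3' sequencing. With 1 library per group, no spread between mice could be estimated for genotype or depot. Intervals below are exact 95% intervals that cover counting error only.

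Interferons are secreted proteins that cells release when they sense foreign or misplaced nucleic acid, and that T cells and NK cells release on activation. Type I interferons act through the receptor IFNAR and lead to binding of the interferon-stimulated response element (ISRE), and interferon gamma acts through IFNGR and leads to binding of the gamma-activated site (GAS). The target genes encode sensors of nucleic acid, inhibitors of viral replication, GTPases that act on intracellular pathogens, immunoproteasome subunits, and regulators that amplify or end the response.

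The bases upstream of the gene starts show which of these elements the members carry. RefSeq promoters of GRCm38.p6 were matched for 27 of the 33 members, and the 250 bases before each start were searched on both strands for the ISRE core GAAANNGAAA (TTTCNNTTTC on the other strand) and for the GAS core TTCNNNGAA. The ISRE core was present in 14 of the 27 members (51.85%), against 3.463% of 27025 genes. The GAS core was present in 7 members (25.93%), against 8.13% of all genes. Matches to both cores occurred in 4 members, and 10 had neither in these windows. A match of letters is a description and no evidence of binding. Windows are printed 5′ to 3′ on the strand of the gene, with matches in capitals, which run together where matches overlap. Isg15, Ifit1, Ifit3 and Rsad2, with ISRE matches only, are shown because their UMIs are followed cell by cell below:
Isg15, chr4:156200863-156200908, minus strand: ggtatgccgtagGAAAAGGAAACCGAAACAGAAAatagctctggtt
Ifit1, chr19:34640773-34640825, plus strand: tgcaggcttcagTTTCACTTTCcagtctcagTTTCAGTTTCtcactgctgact
Ifit3, chr19:34583361-34583428, plus strand: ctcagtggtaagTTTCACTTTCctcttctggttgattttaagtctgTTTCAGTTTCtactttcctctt
Rsad2, chr12:26456551-26456584, minus strand: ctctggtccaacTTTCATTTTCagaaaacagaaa

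Igtp, Gbp7 and Bst2, which held both cores, are shown because their levels differed between T cells and another class. Irf1, which held the GAS core alone, is shown beside them, though its only class difference, in B cells, was lost in 10 of 12 alternative settings:
Igtp, chr11:58199499-58199543, plus strand: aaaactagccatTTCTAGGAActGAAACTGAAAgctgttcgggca
Gbp7, chr3:142530218-142530304, plus strand: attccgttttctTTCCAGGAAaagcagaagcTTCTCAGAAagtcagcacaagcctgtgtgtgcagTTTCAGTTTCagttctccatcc
Bst2, chr8:71537575-71537620, minus strand: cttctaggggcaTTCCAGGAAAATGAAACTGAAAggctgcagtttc
Irf1, chr11:53769912-53769944, plus strand: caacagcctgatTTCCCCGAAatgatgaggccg

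The 4 tables held 4927 barcodes and 49915547 unique molecular identifiers (UMIs), with 10015201 to 15533961 per library, and 4026 cells were kept at a median of 6910 to 13054 UMIs. Over all barcodes, UMIs of the deleted gene Tert numbered 3 (WT) and 2 (KO) for the SC libraries and 8 (WT) and 9 (KO) for the IP libraries, too few to check the deletion, and the gated EC numbered only 1 to 16 per library. KO SC and WT IP shared 93 barcodes, which held a median of 601 UMIs in KO SC and 35392 in WT IP. These were removed from KO SC, where 76 of them had been gated as adipose stromal cells (ASC), and the values below did not turn on them: the median log2 ratio of members in SC ASC was -0.20 without and -0.22 with them. Cells were assigned by UMIs of marker genes that are not members, which gave 1808 T cells, 805 B cells, 714 ASC, 84 macrophages and 74 NK cells, and 425 cells took no class. Check markers that no gate used were high in the matching class, at 1122 to 1709 CPM (counts scaled to a total of 1000000 UMIs per class and library) in T cells, 5529 to 6838 in B cells, 12987 to 13831 in macrophages, 12131 in NK cells and 5357 to 8739 in ASC. The B cell check list was also at 1773 to 2152 in ASC. Haemoglobin, a sign of red cell RNA, was at 2837 CPM in T cells of WT SC against 732 in KO SC, and the heat shock gene Hspa1a at 596 against 25.7. SC B cells differed the same way (923 against 60.2 for Hspa1a, 9855 against 1007 for haemoglobin). Haemoglobin was also higher in WT than in KO in IP T cells (6256 against 116), SC ASC (8376 against 36.7) and IP macrophages (14068 against 313). The part of either in the genotype and depot results was not tested.

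The members together took a small part of the RNA of each class, largest in macrophages among the classes compared. Their summed level was 1384 to 1535 CPM in T cells, 923 to 1200 in B cells and 1327 to 1788 in ASC. It was 2168 in WT IP macrophages and 2732 in KO IP macrophages, the 2 libraries with at least 20 such cells, and 1476 in NK cells of WT IP. Macrophages thus lay above every library of T cells, B cells and ASC. Ifi44 was close to absent, with 0 to 1.88 CPM in these groups. The heat map of all members shows that classes differed in which genes made up the sum.

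**Figure D1:**
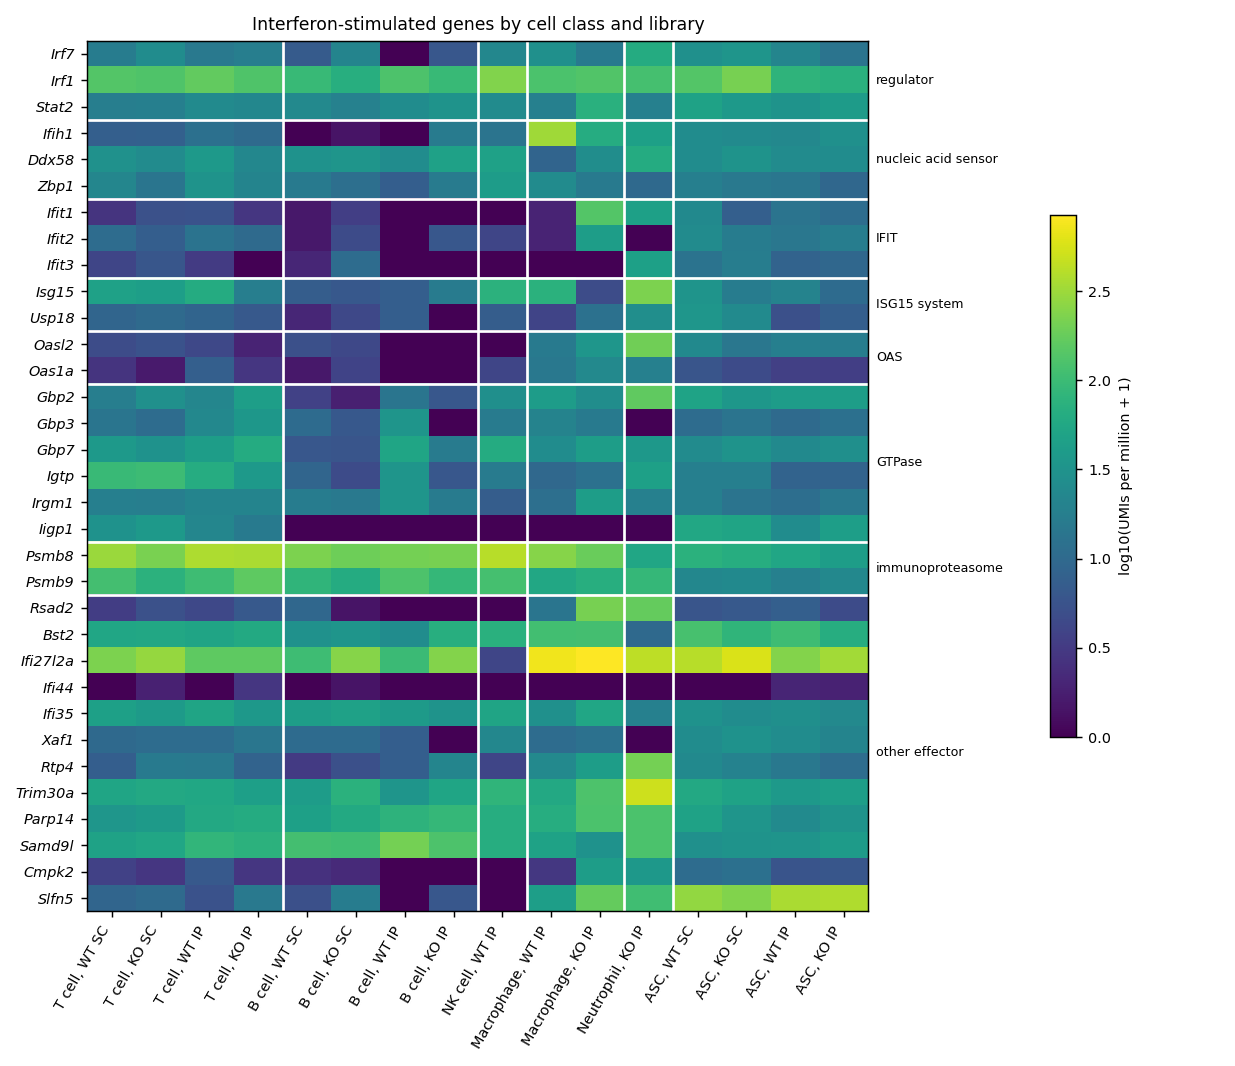
Level of 33 interferon-stimulated genes (rows, ordered by role) in each cell class and library with at least 20 cells (columns), as log10 of CPM plus 1, with no error shown. Iigp1 is at 0 in B cells, NK cells, macrophages and neutrophils, Slfn5 is brightest in ASC, and the immunoproteasome gene Psmb9 is darkest in ASC.

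Classes were compared with T cells inside the 4 libraries, by edgeR's quasi-likelihood test with the library as a block and Benjamini-Hochberg adjustment over 13751 genes, of which 32 were members. The libraries differ in genotype and depot. For classes compared in all 4 of them, the adjusted p therefore measures how well the class difference repeats over them. In ASC, 11 members were higher than in T cells and 6 lower at an adjusted p under 0.05, while 34.4% of all genes were higher and 28.4% lower. The member median was 0.60 on the log2 scale, against 0.09 for all genes. The share of higher members equals that of all genes, and the calls are described gene by gene. The count of higher members went down to 5 without WT SC.

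Slfn5, a member of the Schlafen family, separated ASC from lymphocytes. Its level in ASC was 280 (WT) and 232 (KO) CPM for SC and 359 (WT) and 379 (KO) for IP, whereas T cells had 4.42 to 14.1. Every ASC library lay above every T cell library, and the log2 difference was 5.14 (SE 0.41, n = 4 libraries, edgeR adjusted p = 1.60e-07). Oasl2, a member of the oligoadenylate synthetase-like family, had 13.5 to 23.8 CPM in ASC and 0.939 to 4.44 in T cells, a log2 difference of 2.35 (SE 0.39, edgeR adjusted p = 1.93e-05). Ifit3, which binds viral RNA together with Ifit1, differed by 2.08, the RNA sensor Ifih1 (MDA5) by 1.63 and Cmpk2, a mitochondrial nucleotide kinase, by 1.59. Stat2, the type I specific subunit of the STAT complex, had 30.6 to 47.6 CPM in ASC and 16.7 to 24.3 in T cells, and the antiviral tether Bst2 (0.75) and Ifi27l2a (0.89) were also higher in ASC. The call was lost in 3 of 12 alternative settings for Cmpk2, in 2 for Ifih1 and in 1 each for Stat2 and Bst2.

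The 6 members lower in ASC included both immunoproteasome subunits and 1 GTPase. Igtp (IRGM3) had 7.54 to 17.2 CPM in ASC and 37.6 to 101 in T cells, a log2 difference of -2.62 (SE 0.30, edgeR adjusted p = 2.25e-07). Psmb8, an immunoproteasome subunit, had 41.6 to 73.1 in ASC and 219 to 370 in T cells, and differed by -2.41 (SE 0.20, edgeR adjusted p = 4.77e-10). Psmb9, its partner subunit, differed by -2.35. Neither gene's ASC range overlapped its T cell range. Isg15, the ubiquitin-like modifier, was lower in ASC by 1.11 on the log2 scale, with 9.59 to 31.6 CPM against 16.9 to 62.9, and here the ranges overlapped, as T cells of KO IP were lower than ASC of both WT libraries. Samd9l (-0.93) and Ifi35 (-0.63) were the other lower members. Isg15 and Ifi35 each lost the call in 3 of 12 alternative settings, among them DESeq2 for Isg15. The values of Irf7 (0.37), Irf1 (-0.24) and Gbp2 (0.63) did not pass the test.

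**Figure D2:**
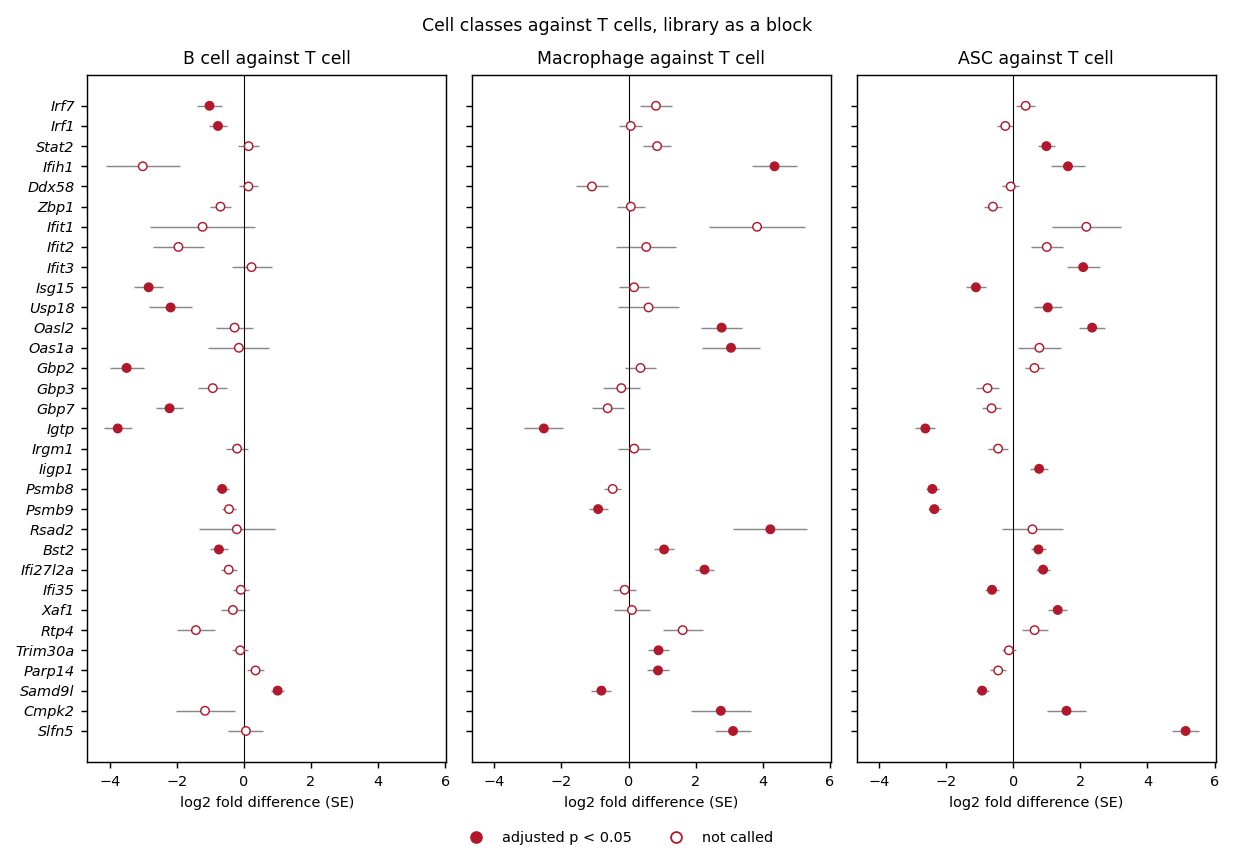
Log2 fold difference of each member between a class and T cells (points, with SE as bars) from edgeR over 4 libraries (macrophages in the 2 IP libraries), filled where the adjusted p is under 0.05. Genes with 0 UMIs in a class are left out (Iigp1 in B cells and macrophages, Ifit3 in macrophages). Slfn5 lies at 5.14 in ASC, Igtp lies left of 0 in all 3 panels, and B cells have 1 filled point on the right.

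B cells had lower levels of the same kind of GTPase and of Isg15. Against T cells, 10 members were lower and 1 higher, where 14.8% of all genes were lower and 8.98% higher, and the member median was -0.67 on the log2 scale against -0.13 for all genes. Without WT SC the number of lower members was 5. Iigp1, an immunity-related GTPase, had 0 UMIs in B cells of all libraries and 15.03 to 36.0 CPM in T cells, at least 49.7-fold higher in T cells with the floor of 3 counts taken over all B cells. Igtp had 3.71 to 32.2 CPM in B cells and differed from T cells by -3.76 (SE 0.42, edgeR adjusted p = 7.81e-07). Gbp2, a guanylate-binding GTPase, had 0.825 to 12.9 in B cells against 16.9 to 43.2 in T cells, a difference of -3.50 (SE 0.51, edgeR adjusted p = 1.80e-05). Isg15 had 5.36 to 15.5 in B cells and differed by -2.84 (SE 0.43, edgeR adjusted p = 3.57e-05), and no B cell library reached the lowest T cell library. However, the 15.5 of KO IP B cells was 3 UMIs (3.20 to 45.3 CPM), close to the 16.9 of KO IP T cells. No class difference in Isg15 could thus be seen inside KO IP.

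Gbp7 (-2.22) and Usp18 (-2.19), the protease that removes ISG15 and dampens receptor signalling, were also lower in B cells, with the call of Usp18 lost in 3 of 12 alternative settings. The smaller differences of the regulators Irf7 (-1.03) and Irf1 (-0.77), and of Bst2 (-0.75) and Psmb8 (-0.65), lost the call in 6, 10, 8 and 3 of 12 alternative settings. The member that was higher was Samd9l, an antiproliferative antiviral factor, with 106 to 206 CPM in B cells and 47.7 to 82.8 in T cells, a log2 difference of 1.005 (SE 0.20, edgeR adjusted p = 4.43e-04) and no overlap. Stat2 (0.14), Ifit3 (0.23) and Ifi27l2a (-0.45) did not pass the test.

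Macrophages had higher levels of several antiviral effectors than T cells, some of them resting on single cells. Against T cells, 10 members were higher and 4 lower, where 15.0% of all genes were higher and 12.6% lower, with a member median of 0.44 against -0.16 for all genes. The classes were compared in the IP libraries only, with 60 and 21 macrophages, and without KO IP 5 members were higher, while without WT IP none was lower. With 2 macrophage libraries, the SE and adjusted p take much of their spread from the other classes. The stricter gate on marker genes left 3 higher and 2 lower. Ifi27l2a was spread over most cells, at 729 CPM in WT IP and 844 in KO IP macrophages against 158 to 293 in T cells, a log2 difference of 2.26 (SE 0.28, edgeR adjusted p = 1.36e-06), and was detected in 50 of 60 and 17 of 21 cells. Bst2, at 110 and 113 CPM, differed by 1.06.

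Some macrophage differences rested largely on single cells. Ifih1 (4.35 on the log2 scale) had 332 UMIs in WT IP macrophages, of which 170 were in 1 cell. Rsad2 (viperin, 4.23) had 56 UMIs in KO IP macrophages, of which 54 were in 1 cell that also held all 37 Ifit1 UMIs. Slfn5 (3.11), Oas1a (3.05), an oligoadenylate synthetase, Oasl2 (2.77) and Cmpk2 (2.75) made up the rest of the larger differences. Cmpk2 had 2 UMIs in WT IP macrophages and 11 in KO IP, of which 10 were in the cell with the Rsad2 and Ifit1 UMIs. The sign of Cmpk2 turned under the stricter gate. Iigp1 had 0 UMIs in both macrophage libraries, against 21.0 (WT) and 15.03 (KO) CPM in T cells of IP, and Igtp was lower by 2.52 on the log2 scale. Psmb9 (-0.91) and Samd9l (-0.81) were the other lower members, the latter being lost in 11 of 12 alternatives. The values of Isg15 (0.16), Irf7 (0.82), Irf1 (0.06), Stat2 (0.85), Gbp2 (0.36) and Psmb8 (-0.47) did not pass, and Ifit3 had 0 UMIs in both macrophage libraries.

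NK cells reached 20 cells in WT IP only, so that this contrast had 1 NK library. No member was higher and 1 was lower, where 0.894% of all genes were higher and 0.640% lower. DESeq2 also called none higher and 1 lower, and at an unadjusted p under 0.05 there were 0 higher and 3 lower. Ifi27l2a had 1 UMI in 40 NK cells, or 3.11 CPM, against 158 to 293 in T cells, with a log2 difference of -5.72 (SE 0.83, edgeR adjusted p = 2.94e-04). The SE and adjusted p take their spread from the libraries of the other classes and do not measure how the difference repeats over NK libraries. Macrophages of the same library had 729.

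Of the genes that make and relay interferon, 2 of 10 ligand genes were seen at all, with 478 UMIs, and Ifng, interferon gamma, was the only one tested. Ifng was lower in ASC, B cells and macrophages than in T cells and did not pass in NK cells (log2 1.31, edgeR adjusted p = 0.237). Ifngr2 had 0 UMIs in NK cells. Of the 4 receptor genes, 3 were lower in ASC (Ifnar1 by 1.27, Ifngr1 by 1.74 and Ifngr2 by 1.15 on the log2 scale), 1 was lower in B cells (Ifngr1, -2.62), and in macrophages Ifnar2 was higher (1.35) and Ifngr1 lower (-0.95). Of 9 signalling genes, 1 was higher and 5 lower in ASC, 2 higher and 4 lower in B cells, and 0 higher and 4 lower in macrophages. Of 41 further interferon-stimulated genes, 13 were higher and 16 lower in ASC, 9 and 13 in B cells, 12 and 10 in macrophages, and 0 and 0 in NK cells. Of all genes, 34.4% were higher and 28.4% lower in ASC, and 8.98% and 14.8% in B cells. The shares of all genes were 15.0% and 12.6% in macrophages and 0.894% and 0.640% in NK cells.

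Genotypes were compared within a depot as log2 ratios of CPM, KO to WT, where a gene reached 20 UMIs summed over the pair. A gene was counted as different past 1.5-fold, with no test. In SC T cells (439 WT and 1146 KO cells) the summed level was the same within counting error, with a log2 ratio of -0.02 (-0.07 to 0.02). Of 31 members, 6 were higher and 2 lower in KO, against 4.62% higher and 14.3% lower of all genes. Under median-of-ratios scaling, which moved the median of all genes from -0.14 to 0.01, 6 were higher and 1 lower.

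Rtp4, an interferon-induced negative regulator of nucleic acid sensing, went from 6.44 CPM in WT SC T cells to 15.1 in KO SC, a log2 ratio of 1.21 (0.65 to 1.86). Gbp2 had 16.9 and 28.4 (ratio 0.75, 0.38 to 1.14) and Irf7, the regulator of type I interferon genes, 15.8 and 25.7 (0.70, 0.32 to 1.11). Ifit1 (1.22, 8 and 41 UMIs), Rsad2 (0.78, 11 and 41 UMIs) and Ifit3 (0.67, 14 and 48 UMIs) completed the higher members. Of the KO UMIs, 4 cells held 20 of 41 for Ifit1, 11 of 41 for Rsad2 and 12 of 48 for Ifit3, but 6 of 243 for Irf7 and 10 of 269 for Gbp2. Zbp1, a sensor of Z-form nucleic acid, was lower at 12.7 against 21.1 CPM (-0.74, -1.14 to -0.33), as was Ifit2 at 6.44 against 9.77 (-0.61, -1.18 to -0.01).

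The other named members of SC T cells were within 1.5-fold. Psmb8 had 303 CPM in WT SC and 219 in KO SC (-0.47, -0.57 to -0.37), Irf1 138 and 130.5 (-0.09), Isg15 46.2 and 42.4 (-0.13), Ifi27l2a 221 and 293 (0.41), Bst2 53.1 and 56.4 (0.09) and Stat2 16.7 and 17.1 (0.03). Outside the members, Ifng had 100 UMIs in WT SC and 63 in KO SC T cells, or 22.2 and 6.65 CPM, a log2 ratio of -1.73 (-2.22 to -1.27). Gbp5 (-1.14) and Cxcl10 (-0.98), both responsive to interferon gamma, and the kinase Tyk2 (-0.72) were lower in the same library, and Eif2ak2 (0.74), the RNA-activated kinase, was higher. The further interferon-stimulated genes had a median of -0.12 over 36 genes, near that of all genes.

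In IP T cells (108 WT and 115 KO cells) 3 of 24 members were higher and 5 lower, against 18.9% higher and 6.94% lower of all genes, and 1 and 5 under median-of-ratios scaling. Isg15 had 62.9 CPM in WT IP and 16.9 in KO IP, a log2 ratio of -1.87 (-2.75 to -1.11), and was seen in 32 of 108 WT and 14 of 115 KO cells. Gbp2 was higher in KO, at 43.2 against 21.0 (1.02, 0.24 to 1.90), as were Psmb9 (0.62, with 32.7% of 168 KO UMIs in 1 cell) and Gbp3 (0.64, -0.17 to 1.52). Igtp (-0.76, -1.39 to -0.16), Ddx58 (RIG-I, -0.79, -1.63 to 0.01), Zbp1 (-0.64) and Rtp4 (-0.90, -2.41 to 0.45) were lower. The IP ratio of Zbp1 rested on few UMIs and is given without an interval. Irf7 (0.22), Irf1 (-0.32), Stat2 (-0.17), Bst2 (0.23), Ifi27l2a (-0.01) and Psmb8 (-0.04) were within 1.5-fold. Of the other pathway genes, Gbp6 (1.35), Ly6a (0.70) and Ifngr2 (0.65) were higher and Socs3 (-0.75) and Lgals9 (-0.59) lower. Past 1.5-fold the same way in both depots, T cells had higher Gbp2 and lower Zbp1 in KO, and 13 of 24 members had the same sign in both (54.2%, against 44.2% of all genes). The share of all genes past 1.5-fold the same way in both depots was not counted, so these calls have no background.

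**Figure D3:**
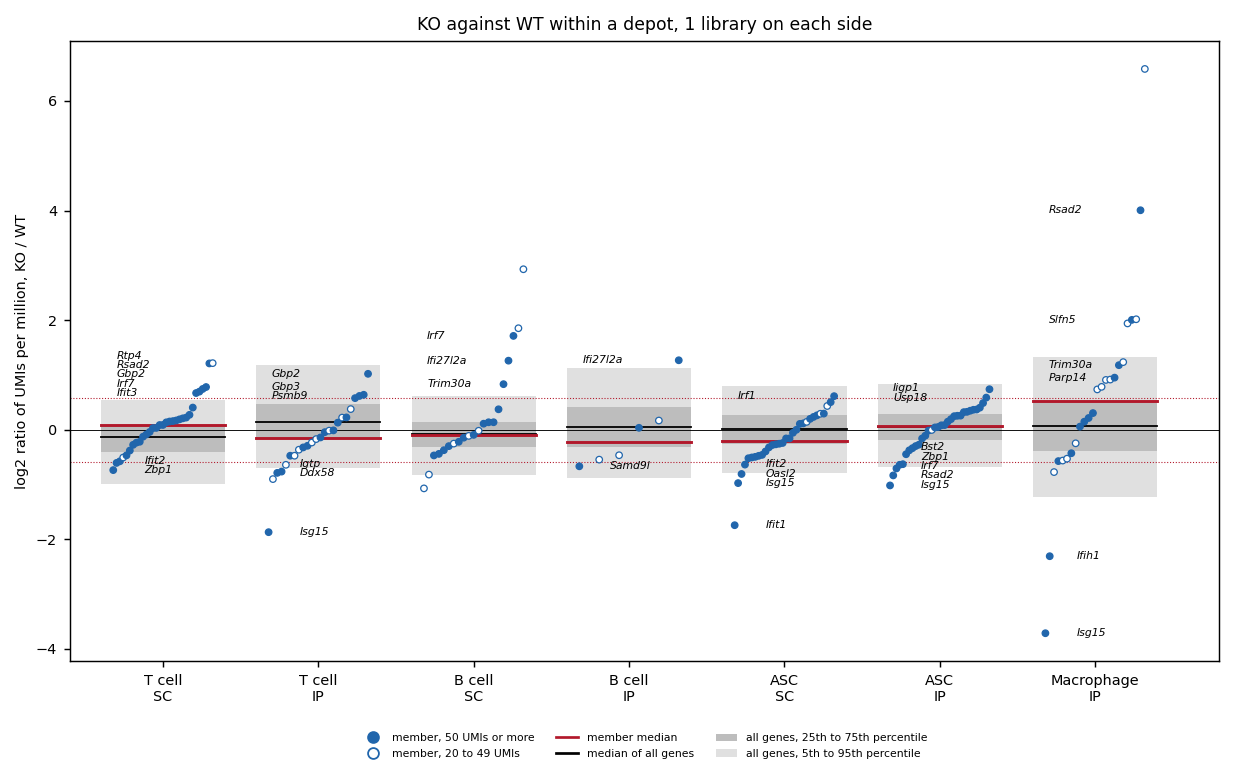
Log2 ratio of CPM, KO to WT, of each compared member in each cell class and depot (points, open below 50 UMIs), with the member median in red and the median and percentiles of all compared genes in black and grey. Each ratio is of 1 library against 1 and has no replicate error. Names mark members past 1.5-fold (dotted lines) with at least 50 UMIs, such as Isg15 at -1.87 in IP T cells and Ifi27l2a at 1.26 and 1.27 in B cells.

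In SC B cells (300 WT and 459 KO cells) the summed members were higher in KO by 0.19 on the log2 scale (0.11 to 0.28). Of 21 members, 5 were higher and 2 lower, against 5.54% higher and 10.7% lower of all genes. Ifi27l2a had 102 CPM in WT SC and 245 in KO SC, a log2 ratio of 1.26 (1.03 to 1.51), and was seen in 89 of 300 and 187 of 459 cells. Trim30a, a TRIM protein that restrains inflammatory signalling, had 40.9 and 73.0 (0.83, 0.44 to 1.24), and Irf7 5.84 and 19.8 (1.71, 0.80 to 2.86). Slfn5 (1.85, 8 and 39 UMIs) and Ifit3 (2.93, 2 and 24 UMIs) were the others. Igtp (-1.07, -2.47 to 0.19) and Gbp3 (-0.82, -1.98 to 0.28) were the lower members, at 9 to 18 UMIs a library. Irf1 had 92.4 and 68.1 CPM (-0.44), Psmb8 222 and 191 (-0.22), Bst2 29.2 and 32.2 (0.14), Stat2 22.8 and 18.6 (-0.30) and Isg15 6.37 and 5.36 (-0.25). Of the other pathway genes, Tor3a (0.85), Ly6a (0.81) and Phf11b (0.62) were higher, and Pml (-1.04) and Nlrc5 (-0.69) lower.

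Few SC B cells of KO accounted for part of these ratios. After each cell was thinned to 2000 UMIs, 6 of 449 B cells of KO SC held at least 20 member UMIs (1.34%, 0.492 to 2.89), against 0 of 298 in WT SC, which allows a share of up to 1.01%. The threshold was chosen after the values were seen, and 1 WT SC B cell, 1 KO IP T cell and 1 WT IP macrophage lay just below it at 19. Each of the 6 cells held 15 to 21 different members. Together they contained 6 of 6 Ifit1, 9 of 9 Ifit2, 21 of 24 Ifit3, 7 of 8 Usp18, 24 of 39 Slfn5 and 17 of 26 Zbp1 UMIs of the class. They contained 17 of 48 Irf7 UMIs, 34 of 177 Trim30a UMIs and 107 of 593 Ifi27l2a UMIs, so that most of the Ifi27l2a UMIs lay in other B cells. The class had only 2 Gbp2 UMIs, neither of them in these cells, and 0 Iigp1 UMIs, too few to describe either gene here. The cell with the largest share had 89 member UMIs among 4588, led by Ifi27l2a (22), Slfn5 (12) and Ifit3 (10).

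T cells of the same library held 4 more such cells, of 1139 (0.351%, 0.0958 to 0.897), against 0 of 434 in WT SC. Their members numbered 21 to 24 each, and the cell with the largest share had 102 member UMIs among 3711, with 17 of Ifi27l2a and 7 each of Ifit1, Bst2 and Iigp1. T and B cells together had 10 of 1588 in KO SC (0.630%, 0.302 to 1.16), 0 of 732 in WT SC, which allows up to 0.410%, 0 of 129 in WT IP and 0 of 139 in KO IP. The intervals of the SC libraries overlap, and the IP libraries had too few cells to show a share of this size. No ASC reached the threshold in any library. In macrophages, 1 of 59 cells of WT IP did, with 170 of its 184 member UMIs from Ifih1.

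**Figure D4:**
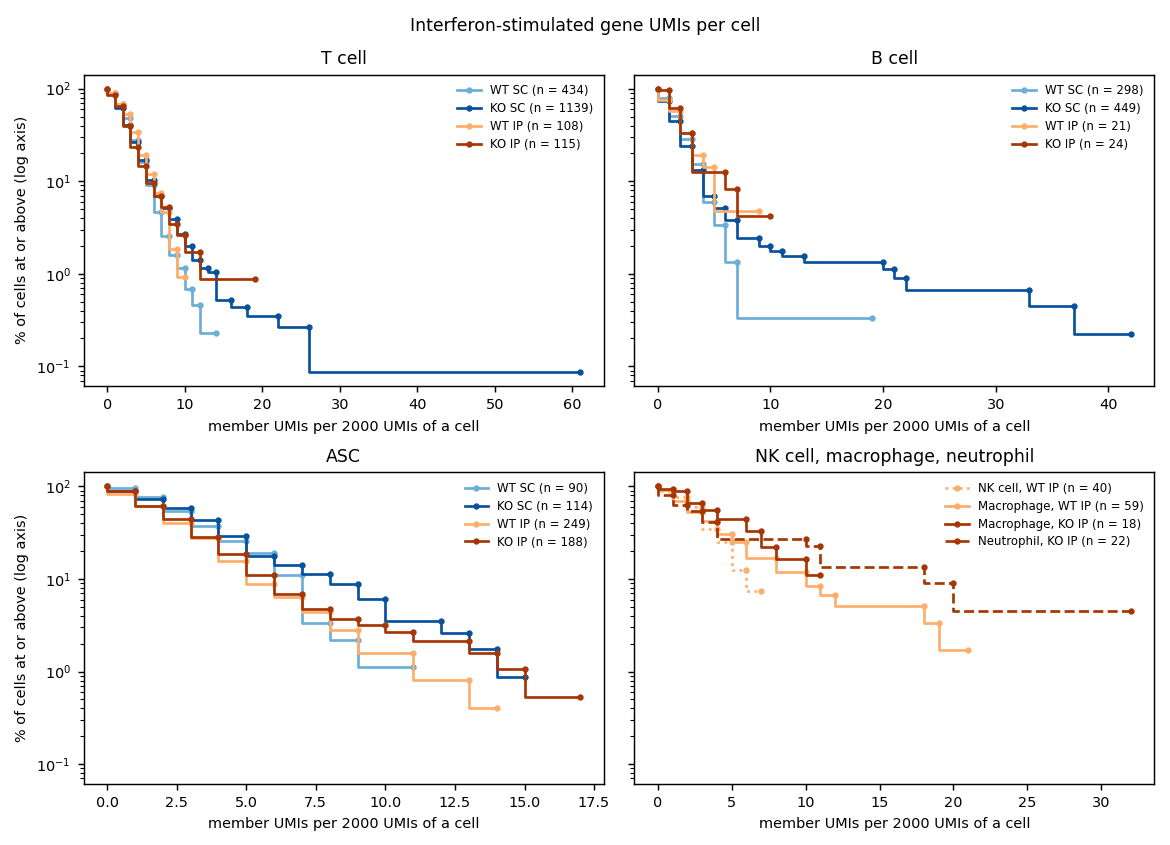
Share of cells (vertical, log axis) holding at least a given number of UMIs of the 33 members after each cell was thinned to 2000 UMIs (horizontal), by cell class and library, with the number of cells in the legend. The KO SC lines of T and B cells run out to 61 and 42 UMIs, those of WT SC end at 14 and 19.

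In IP B cells, with 22 WT and 24 KO cells, only 6 members could be compared, of which 1 was higher and 1 lower, against 17.6% higher and 11.3% lower of all genes. Ifi27l2a had 96.7 CPM in WT IP and 238 in KO IP, a log2 ratio of 1.27 (0.43 to 2.25), and 1 of the 24 KO cells held 41.3% of its 46 KO UMIs. It was the only member past 1.5-fold the same way in B cells of both depots, where the share of all genes was not counted. The same sign in both was seen for 5 of 6 members (83.3%, against 50.1% of all genes). Samd9l was lower at 129 against 206 (-0.67, -1.49 to 0.13), and Psmb8 (0.04) and Irf1 (-0.47) were within 1.5-fold.

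In SC ASC (102 WT and 124 KO cells) 1 of 30 members was higher and 4 lower in KO, against 9.13% higher and 9.09% lower of all genes. The member median was -0.20 and that of all genes 0.01. Ifit1 had 23.3 CPM in WT SC and 6.73 in KO SC, a log2 ratio of -1.74 (-2.90 to -0.81), and was seen in 14 and 7 cells. Isg15 had 31.6 and 15.9 (-0.97, -1.72 to -0.30), Oasl2 23.8 and 13.5 (-0.81, -1.63 to -0.05) and Ifit2 24.9 and 15.9 (-0.64, -1.40 to 0.08). These are antiviral effectors of the type I response. When each cell was weighted equally, the ratio of Oasl2 was 0.0054. Irf1 was higher, at 213 against 140 CPM (0.61, 0.38 to 0.85). Irf1 is also an immediate early gene, and the list of 20 dissociation and immediate early genes had a median of 0.29 in this comparison, whose part in the Irf1 value was not tested.

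The other named members of SC ASC were within 1.5-fold. Ifi27l2a had 407 and 578 CPM in WT and KO (0.50, 0.36 to 0.65), Bst2 117 and 81.3 (-0.52, -0.85 to -0.20), Gbp2 49.3 and 34.9 (-0.49), Stat2 47.6 and 36.1 (-0.40), Psmb8 73.1 and 65.4 (-0.16), Irf7 28.2 and 32.4 (0.20) and Ifit3 12.2 and 16.5 (0.43). Ifi27l2a and Bst2 thus lay on opposite sides of 0 with intervals that excluded it. Among the further genes Ddx60 (-1.15), Dtx3l (-0.76), Phf11d (-0.71) and Ifi203 (-0.60) were lower, and the chemokine Cxcl10 was higher (1.06, 51 and 97 UMIs), as was Irf3 (0.66).

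In IP ASC (273 WT and 215 KO cells), where 32 members were compared, 2 were higher and 5 lower, against 9.76% higher and 6.43% lower of all genes, and 1 and 5 under median-of-ratios scaling. Isg15 had 19.6 CPM in WT IP and 9.59 in KO IP, a log2 ratio of -1.02 (-1.57 to -0.51), and was seen in 57 of 273 and 19 of 215 cells. Bst2 had 103 and 66.5 (-0.63, -0.84 to -0.43), Irf7 20.2 and 12.3 (-0.71, -1.21 to -0.24), Zbp1 13.3 and 8.45 (-0.64, -1.26 to -0.07) and Rsad2 6.63 and 3.65 (-0.83, -1.80 to 0.01). Iigp1 was higher, with 25.8 and 43.2 (0.74, 0.42 to 1.06), but 1 KO cell held 43.9% of its 189 KO UMIs and the ratio was -0.13 under the stricter gate, and Usp18 was at 0.59 (-0.24 to 1.43).

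Ifi27l2a had 239 and 335 CPM in IP ASC (0.49, 0.38 to 0.59), close to its SC ratio, and Stat2 (0.37), Ifit3 (0.15), Gbp2 (0.05), Irf1 (-0.16) and Psmb8 (-0.34) were within 1.5-fold. Isg15 was the only member past 1.5-fold the same way in ASC of both depots, and the share of all genes passing this rule was not counted. The same sign in both was seen for 17 of 30 members (56.7%, against 57.2% of all genes). Markers of mesothelium, which the ASC gate did not exclude at low level, were at 146 CPM in WT IP ASC and 253 in KO IP against 14.1 to 20.5 in SC, and their part in the IP values was not tested. Of the other pathway genes, the feedback inhibitors Socs1 (-0.70) and Socs3 (-0.68) and the chemokine Cxcl9 (-0.59) were lower in KO IP, and Cxcl10 (1.31), Znfx1 (0.83), Ifi47 (0.80) and Gbp6 (0.59) were higher.

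In IP macrophages (60 WT and 21 KO cells) 12 of 24 members were higher and 3 lower, against 22.4% higher and 16.5% lower of all genes, and 11 and 7 under median-of-ratios scaling. The median was 0.52 over members and 0.07 over all genes. Members seen in several KO cells included Slfn5, with 42.2 CPM in WT and 170 in KO (2.005, 1.37 to 2.64), and Stat2 with 17.7 and 71.6 (2.02, 1.01 to 3.03). Others were Trim30a with 57.0 and 128 (1.18, 0.51 to 1.80) and Parp14, an ADP-ribosyltransferase, with 64.8 and 124 (0.95, 0.29 to 1.56). For each gene, the top KO cell held 40% of 45 UMIs (Slfn5), 31.6% of 19 (Stat2), 23.5% of 34 (Trim30a) and 24.2% of 33 (Parp14). The ratios of Ifit1 (6.58) and Rsad2 (4.01) rested on the single KO cell described above. It held 173 of the 725 member UMIs of KO, from 25 members, with 8 each of Trim30a and Parp14. Its part in the number of higher members was not tested. In the other direction Isg15 had 75 UMIs in 15 WT cells and 1 UMI in KO (-3.71, -9.61 to -1.77). However, 1 WT cell held 49.3% of the 75 UMIs. Isg15 was seen in 25% of 60 WT cells and 4.76% of 21 KO cells before thinning. After thinning the shares were 3.39% of 59 WT cells (0.413 to 11.7) and 5.56% of 18 KO cells (0.141 to 27.3). The thinned shares rest on too few cells to compare the genotypes. Ifih1 went from 326 to 64.1 CPM (-2.31), with 1 WT cell giving 170 of 332 UMIs. Irf7 (-0.77, -2.89 to 0.59) was lower on 29 and 4 UMIs, with 58.6% of the 29 WT UMIs in 1 cell.

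Irf1 (0.15), Bst2 (0.06), Ifi27l2a (0.21), Gbp2 (-0.53) and Psmb8 (-0.43) of IP macrophages were within 1.5-fold. Of 24 further interferon-stimulated genes 22 were higher in KO macrophages and 15 past 1.5-fold, against 22.4% of all genes past 1.5-fold higher. Their median was 0.88, and Ifi209 (1.12), Lgals3bp (0.96) and Ifi204 (0.93) were among the higher genes. Cxcl10 was lower (-0.97). All 13 mitochondrially encoded genes (median 0.32) and 14 of 20 dissociation genes (median 0.34) were also higher in these cells, and neutrophil gate markers were at 37.3 CPM in WT and 82.9 in KO. Their part in the ratios was not tested.

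Depots were compared within a genotype, IP against SC, and a gene was counted when past 1.5-fold the same way in WT and KO. Depot cannot be told apart from the preparation of each library, and these ratios use the same libraries as the KO to WT ratios. In ASC, 8 of 31 members were lower and 0 higher in IP, against 7.36% lower and 9.85% higher of all genes. The member medians were -0.55 in WT and -0.20 in KO, where all genes were at 0.07 and 0.10. The summed level was lower in IP by 0.39 (0.33 to 0.45) in WT and by 0.33 (0.27 to 0.40) in KO on the log2 scale.

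Usp18 differed most between depots in ASC, with 33.8 (WT) and 24.5 (KO) CPM for SC against 4.25 (WT) and 6.396 (KO) for IP, so that both SC libraries lay well above both IP libraries. Its log2 ratio was -2.97 (-3.72 to -2.30) in WT and -1.93 (-2.69 to -1.20) in KO. Irf1 had 140 and 213 CPM in SC and 78.9 and 70.6 in IP (-0.82 in WT, -1.60 in KO). Dissociation and immediate early genes had medians of -0.05 in WT and -0.51 in KO over 20 genes, and their part in the Irf1 values was not tested. Ifi27l2a had 407 and 578 in SC and 239 and 335 in IP (-0.77, -0.90 to -0.64, and -0.79, -0.91 to -0.67).

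Igtp (-1.17 and -1.19 in WT and KO), Cmpk2 (-1.08 and -1.14), Rtp4 (-0.80 and -0.92), Ifit3 (-0.69 and -0.97) and Isg15 (-0.70 and -0.74) were the other members lower in IP ASC of both genotypes. Of the 27 Ifit3 UMIs in KO SC ASC, 51.9% were in 1 cell. With cells weighted equally, Isg15 was at 0.12 and 0.03. Bst2 (-0.19 and -0.29), Gbp2 (-0.31 and 0.24), Stat2 (-0.64 and 0.12), Irf7 (-0.49 and -1.39) and Psmb8 (-0.48 and -0.66) did not pass in both. Slfn5 was at 0.36 and 0.70, past 1.5-fold higher in KO alone. Cxcl9, a chemokine induced by interferon gamma, went the other way, with 14.9 (WT) and 0.612 (KO) CPM for SC against 98.3 (WT) and 65.1 (KO) for IP, whereas Cxcl10 was lower in IP (-1.73 in WT and -1.48 in KO).

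**Figure D5:**
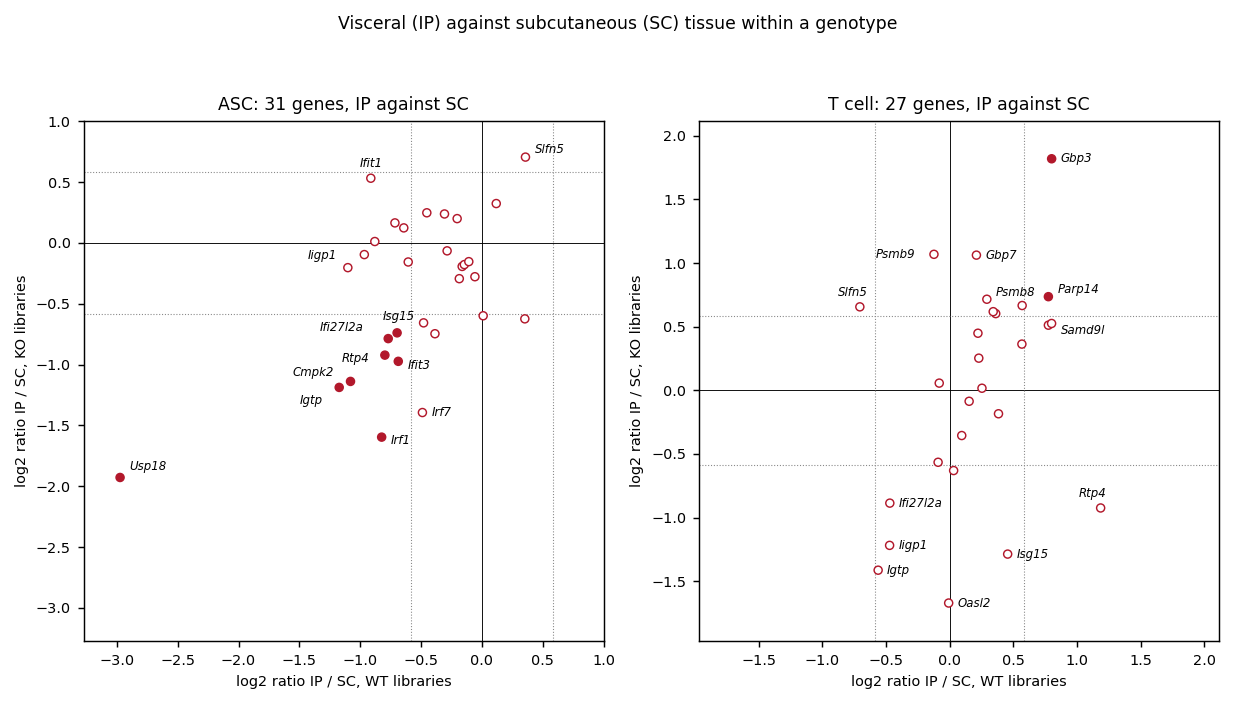
Log2 ratio of CPM, IP to SC, in WT libraries (horizontal) against KO libraries (vertical) for members compared in ASC (left) and T cells (right), with dotted lines at 1.5-fold. Filled points are past it in both genotypes: 8 genes at the lower left in ASC, of which Usp18 is farthest, and Gbp3 and Parp14 at the upper right in T cells.

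In T cells, 2 of 27 members were higher and 0 lower in IP, against 9.06% higher and 3.39% lower of all genes. Gbp3 had 12.9 and 9.93 CPM in WT and KO SC and 22.1 and 34.8 in IP (0.80, -0.03 to 1.53, and 1.82, 1.22 to 2.37). Parp14 had 33.8 and 38.0 in SC and 57.4 and 62.9 in IP (0.78, 0.28 to 1.23, and 0.74, 0.33 to 1.11). The member medians were 0.23 in WT and 0.25 in KO, and in KO that of all genes was 0.31. Under median-of-ratios scaling the KO medians were -0.09 for members and -0.03 for all genes, and the KO ratio of Parp14 was 0.39, below 1.5-fold.

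Among the other T cell ratios, that of Isg15 had opposite signs in WT and KO. Isg15 was 46.2 and 62.9 CPM in WT SC and WT IP (0.46), but 42.4 and 16.9 in KO SC and KO IP (-1.29, -2.09 to -0.65). Psmb8 was higher in IP at 0.29 in WT and 0.72 in KO, Gbp2 at 0.34 and 0.62 and Zbp1 at 0.57 and 0.67. Samd9l was at 0.80 (0.40 to 1.18) and 0.53 (0.16 to 0.86). Igtp was lower at -0.56 and -1.41, and Ifi27l2a at -0.47 and -0.89. Irf1 (0.25 and 0.02), Irf7 (-0.09 and -0.57), Stat2 (0.57 and 0.36) and Bst2 (-0.08 and 0.06) were below 1.5-fold in both. Ifit3 had 48 UMIs in KO SC and 0 in KO IP T cells, at least 1.80-fold lower in IP with the floor of 3 counts. Outside the members, Ifng had 22.2 and 6.65 CPM in T cells of WT and KO SC and 117 and 98.6 in IP (2.40 in WT and 3.89 in KO). Ifngr1 was higher in IP T cells (1.04 and 1.05) and Ifngr2 lower (-1.11 and -0.73). NK gate markers were also higher in IP T cells, at 99.6 to 120 CPM against 20.3 to 24.2 in SC, and their part in these ratios was not tested.

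In B cells, 1 of 13 members was higher and 0 lower in IP of both genotypes, against 4.29% higher and 5.67% lower of all genes. Parp14 had 45.1 and 58.6 CPM in SC and 77.3 and 87.9 in IP (0.83, -0.23 to 1.66, and 0.62, -0.23 to 1.32). The intervals include 0, and the KO ratio was 0.53 under median-of-ratios scaling. Samd9l, the member that set B cells apart from T cells, was higher in IP in WT (0.89, 0.28 to 1.41). Irf1 (0.51 and 0.49), Ifi27l2a (-0.03 and -0.03) and Psmb8 (-0.09 and 0.17) were below 1.5-fold, and Bst2 (-0.02 and 1.11) and Stat2 (0.33 and 0.84) passed it in KO alone. The member medians were 0.33 in WT and 0.31 in KO.

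A core of 9 members that respond mainly to type I interferon (Ifit1, Ifit2, Ifit3, Isg15, Oasl2, Oas1a, Rsad2, Usp18 and Cmpk2) was counted per cell at 2000 UMIs. A UMI of any of them was seen in 26.7% (WT, 17.9 to 37.0) and 17.5% (KO) of SC ASC and in 14.5% (WT) and 14.4% (KO) of IP ASC. T cells had 15.2%, 12.9%, 16.7% and 7.83% in that order, and B cells 4.03%, 3.12% and 0 of 21 and 0 of 24 cells. All cells had the same depth here, and B cells gave the lowest share. At least 3 different core genes were seen in 1 of 434 T cells of WT SC and 4 of 1139 of KO SC, in 2 of 449 B cells of KO SC, and in 1 of 90, 1 of 114, 2 of 249 and 2 of 188 ASC. The ASC of WT IP with the most member UMIs per 2000 had 202 of them among 24800 UMIs, from 30 different members, led by Ifi27l2a (38), Ifit1 (28) and Iigp1 (17).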

How the data were processed

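The members and lists were chosen with earlier results of these data known. Each deposited matrix held unnormalized UMI counts, produced by the authors in Cell Ranger 7.0.0 as its header records. The submitters' processing notes also name STAR 2.6 and the build mm10. Intronic reads and the cell calling rule are not given in the sources used here. Reads of near-identical copies (Ifit1 and Ifit3 paralogs, Oas1a and Oas1g, Trim30a and Trim30d, Ifi27l2a, Gbp2) can be dropped or moved between them. No column was a value of another sample.

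A barcode was kept from 200 detected genes upward if its mitochondrial UMIs did not exceed 25%. Scrublet (scanpy 1.11.5, expected rate 5%) marked 17 doublets (0.420%), which were removed, as were barcodes shared with another library where they held fewer UMIs. A cell took 1 of 10 classes with at least 4 marker UMIs from at least 2 genes, at least 70% of its marker UMIs, and at most 2 marker genes of another class. Classes with at least 20 cells were compared. Counts were summed per class and library. Classes were tested with edgeR 4.0.16 (glmQLFit, TMM, filterByExpr). Ratios are of CPM with 0.5 UMI added and exact conditional binomial intervals. Shares carry exact Clopper-Pearson intervals, and 0 was taken to allow 3 counts. Both statistics were tested on simulated data with known changes. Coordinates are GRCm38.

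In each comparison the text names Isg15, Ifit3, Irf7, Irf1, Stat2, Bst2, Gbp2, Ifi27l2a and Psmb8 where compared, members past 1.5-fold with at least 50 UMIs, and the 5 called members of largest fold per direction between classes. Other members named were chosen after their values were seen. A signalling gene past the same limits is not reported here. Alternatives covered scaling, filters, gates, doublets, weighting, the added UMI, Cd4 or Cd8 T cells alone, DESeq2 1.42.0, the library term, each library left out and, chosen after seeing the data, shared barcodes kept. R 4.3.3 and Python 3.11.15 (pandas 2.3.3, scipy 1.17.1, numpy 2.4.6, matplotlib 3.10.9) were used.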

Additional observations from a re-analysis of the deposited data

Results flagged for a closer look

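Some ratios of the same gene were past 1.5-fold in opposite directions in 2 groups, and these differences were not tested. For Rtp4 in T cells the KO to WT log2 ratio was 1.21 (SC) and -0.90 (IP), and its ratio of IP against SC was 1.19 in WT and -0.92 in KO. Both pairs use the same 4 values, and IP rests on 13 and 8 UMIs. Slfn5 in T cells, IP against SC, was -0.71 in WT and 0.66 in KO, with 4 and 15 UMIs in IP. Zbp1 in B cells, IP against SC, was -0.65 in WT and 0.73 in KO, with 1 and 3 UMIs in IP.

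Signal outside the comparisons was present in cells that took no class, whose summed member level was 1222 (WT) and 1359 (KO) CPM for SC and 1501 (WT) and 1727 (KO) for IP. It was also present in the 22 cells of the neutrophil gate of KO IP, at 2991 CPM, above every other class. There Trim30a had 499 CPM, Isg15 223, Rtp4 205 and Oasl2 196. After thinning, 2 of these 22 cells held at least 20 member UMIs and 34.5% of the member UMIs of the class. Other libraries held 3 to 10 such cells and were not compared.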

How the results depend on the processing

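No paired analysis of genotype or depot was possible because each group is 1 library and the labels carry no replicate numbers. The class contrasts were made inside libraries, with the library as a block. Class counts stayed within 1.5 times in 88 of 94 alternatives. The stricter gate left 3 members higher and 2 lower in macrophages, where 10 and 4 were called, and the cause was not tested. With each library left out in turn, 5 to 15 members were higher and 4 to 7 lower in ASC, 1 to 1 and 5 to 11 in B cells, 5 to 9 and 0 to 3 in macrophages, and 0 to 0 and 1 to 1 in NK cells. RLE size factors moved the median of all genes in ASC from 0.09 to 0.26. In macrophages, Trim30a was at -0.056 and Cmpk2 at -1.04 under the stricter gate, and Cmpk2 ran from -0.0586 without KO IP to 4.98 without WT IP.

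The member median ratios stayed inside the interval of the reported median, not printed here, in 124 of 124 alternatives, but this rule let signs turn. In KO T cells, IP against SC, the median went from 0.25 to -0.09 under median-of-ratios scaling and was counted as inside. Of 248 counts past 1.5-fold, 54 moved more than 1.5 times. Signs turned with cells weighted equally for KO against WT of Oasl2 in SC ASC (0.0054) and Gbp3 in IP T cells (-0.078), and for IP against SC of Isg15 in ASC (0.12 in WT, 0.030 in KO), Xaf1 in KO ASC (0.27) and Ifit2 in KO T cells (-0.16). In T cells with Cd4 UMIs alone, Igtp (0.14) and Psmb9 (-0.13) turned for KO against WT in IP, and Usp18 (0.54), Rtp4 (1.25) and Iigp1 (0.41) for IP against SC in KO. In T cells with Cd8 UMIs alone, Gbp2 (-0.37) and Slfn5 (-0.20) turned for IP against SC in KO. Under the stricter gate Iigp1, KO against WT in IP ASC, was at -0.13. Depth limits IP B cells (22 and 24 cells) and KO IP macrophages (21 cells) most.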
